A study of Ovis aries and Capra hircus and Bos taurus with 26 samples.

Results

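The H3K4me3 peaks of cattle and goat liver were compared chromosome by chromosome on the 27 autosomes that carry the same number and the same material in both species. Both species have 29 autosome pairs, and a piece that lies on chromosome 9 in one and on chromosome 14 in the other sets these 2 apart, so both were left out. Of the 616400 peaks in the 17 peak lists of the series, 144905 belong to this comparison, and 183234 lay on any sequence of the same 6 libraries. A peak is here 1 distinct interval of a list.

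The livers came from adult healthy animals, 3 Holstein cattle and 3 Yunnan black goats, without any treatment or genetic change, and each library stands for 1 animal named A, B or C. By the paper, the goats were from a younger age range than the cattle, and the ranges meet at 3 years. Chromatin was precipitated with the same H3K4me3 antibody in both species. The reads of each species were mapped to its own reference, ARS-UCD1.2 for cattle and ARS1 for goats. Differences between the species, the references and the ages therefore cannot be told apart in any value below. The letters do not pair an animal of one species with an animal of the other. The authors drew the same number of reads from each library before calling peaks, but the lists hold no read numbers, so depth cannot be checked in them, and the 3 animals per species limit the precision.

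H3K4me3, the trimethylation of lysine 4 of histone H3, is written by the SET1 and MLL complexes around the start sites of active and poised genes. Most of its peaks mark promoters, and many promoters carrying it are CpG islands that are used in nearly every tissue. Its density along a chromosome therefore follows gene density closely. Autosomes of cattle and goats have their centromere at one end, and the gene order along them is largely shared. The direction in which a chromosome is written in a reference is a convention of that assembly.

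On the 27 autosomes the numbers of peaks were alike in the 2 species. The cattle libraries held 24931 peaks in animal A, 22334 in B and 24024 in C. The goat libraries held 22219 in A, 25453 in B and 25944 in C. The highest and the lowest of the 6 libraries were both goats. The goat to cattle ratio was 1.03 (p = 0.6, two-sided exact permutation test, 3 against 3 animals, which cannot go below p = 0.1). Relative to the length of the chromosomes, cattle had 10.3 ± 0.6 peaks per Mb (SD, n = 3) and goats 10.8 ± 0.9, a ratio of 1.04 (p = 0.5, exact permutation test). As no sequence was used here, the length of a chromosome is the end of its last peak in any list of the species, 2300.2 Mb for cattle and 2277.3 Mb for goats in sum. The goat lists held a further 7354 to 10977 peaks on sequences that carry no chromosome number, 2 of which reach past 40 Mb. The cattle lists held none on unplaced sequences and 1158 to 1227 on the sex chromosome. Unless said otherwise, none of these peaks enters a share below.

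The chromosomes differed far more from one another than the species did. Chromosome 19 was the densest in both species, with 21.7 ± 1.2 peaks per Mb in cattle and 23.4 ± 1.6 in goats (SD, n = 3 each), followed in both by 18 and 25. All 3 are short and gene-rich. The emptiest was chromosome 20 in cattle, with 6.08 ± 0.38 peaks per Mb, and chromosome 12 in goats, with 6.42 ± 0.59. The densest chromosome thus held 3.57 times as many peaks per Mb as the emptiest in cattle and 3.65 times as many in goats. Across the 27 chromosomes the mean densities of cattle and goats were correlated with Pearson's r = 0.995, as a description over chromosomes that share their libraries. Median width followed less closely, with r = 0.79, and the share of peaks found in a second animal of the same species with r = 0.66.

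The share of a chromosome is the percentage of a library's peaks on the 27 autosomes that fall on it, which takes out the number of peaks in the library. It ranged from 1.54% on chromosome 27 to 5.88% on chromosome 7 in cattle, and from 1.56% on 27 to 5.97% on 19 in goats. In limma's test across all 27 chromosomes, 12 differed between the species at an adjusted p under 0.05, that is 44.4%. Goats were higher on 7 (25.9%) and lower on 5 (18.5%). The split depends on the scaling and on the stretches counted. As shares of all peaks of a library, of which 90.3% lay on these autosomes in cattle and 70.7% in goats, 0 were higher and 27 lower. That scaling moves all 27 differences by the same amount. Projecting ends are stretches reaching past the end of the partner chromosome. Without them 3 were higher and 3 lower, in a fit that pooled the spread over chromosomes more fully. The shares of the 3 goats did not overlap those of the 3 cattle on 8 chromosomes with goats higher (29.6%) and on 6 with goats lower (22.2%). Most differences were small, with a median size of 0.034 on the log2 scale against a median SE of 0.016. Since shares add up to the whole, a loss on one chromosome raises the others. Without cattle C, 7 chromosomes were called.

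**Figure D1:**
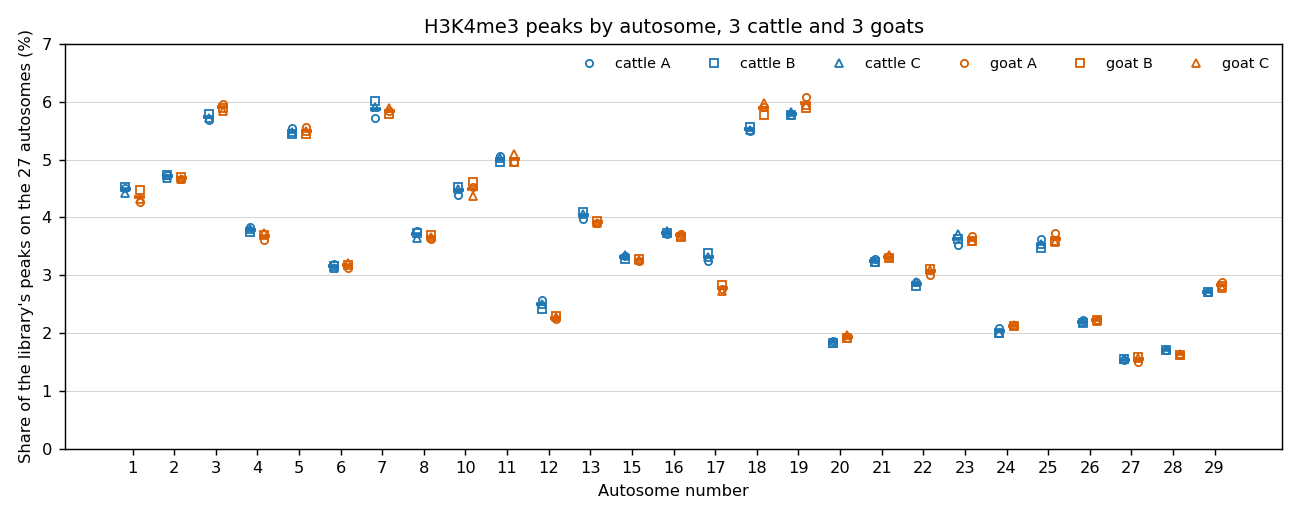
Share of H3K4me3 peaks (% of the library's peaks on the 27 autosomes, vertical axis) by autosome number (horizontal axis). Each open symbol is 1 animal, blue for cattle and orange for goats, and each bar is the mean of 3. The 2 species overlap on 13 of the 27 chromosomes, and without overlap goats are higher on 8 and lower on 6. Chromosome 17 shows the widest gap, with goats between 2.73% and 2.84% and cattle between 3.25% and 3.39%.

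Chromosome 17 stood furthest apart. It held 3.25%, 3.39% and 3.32% of the peaks in cattle A, B and C. In the goats A, B and C it held 2.76%, 2.84% and 2.73%. The goats lay below all cattle, by 0.26 on the log2 scale (SE 0.019, adjusted p = 3.5e-08, limma), which is a ratio of 0.84. It was also the only one of the 27 chromosomes on which peaks per Mb did not overlap, with 8.67 to 10.2 in goats and 10.3 to 11.1 in cattle. In H3K27ac (acetylation of lysine 27, a mark of active promoters and enhancers) its share differed in the same direction, by -0.34, from 2 of the 3 cattle livers and all 3 goat livers. Without projecting ends the H3K4me3 difference was -0.023 and not called.

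Chromosome 12, sparse in peaks, came next. Its shares were 2.571%, 2.413% and 2.502% in cattle A, B and C. In goats A, B and C they were 2.241%, 2.290% and 2.278%. The groups did not overlap, and the log2 difference was -0.14 (SE 0.020, adjusted p = 1.2e-04, limma). On the short chromosome 28 cattle A, B and C had 1.713%, 1.706% and 1.715% and goats A, B and C 1.625%, 1.630% and 1.638%, a log2 difference of -0.069 (SE 0.014, adjusted p = 0.0012). Its call was lost for the summed length of peaks (-0.020, adjusted p = 0.10) and for the 15000 strongest peaks (-0.020, adjusted p = 0.29). On chromosome 13 cattle had 3.97%, 4.09% and 4.06% and goats 3.91%, 3.93% and 3.91%, a difference of -0.045 (SE 0.016, adjusted p = 0.035). That call was lost without cattle B (adjusted p = 0.15), cattle C (0.11), goat A (0.069) or goat C (0.070). Without projecting ends 13 and 28 turned to 0.020 and 0.0068, neither called. The fifth chromosome with a lower share in goats was 4, at -0.043.

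Among the chromosomes with a higher share in goats, 22 led. It held 2.88%, 2.81% and 2.88% of the peaks in cattle A, B and C. The goats A, B and C had 3.01%, 3.11% and 3.10%. All goats exceeded all cattle, by 0.10 (SE 0.017, adjusted p = 2.3e-04, limma). The gene-dense chromosome 18 had 5.49% to 5.56% in cattle and 5.77% to 5.97% in goats, 0.09 higher (SE 0.016, adjusted p = 3.8e-04), but without projecting ends the difference was 0.00021 (adjusted p = 0.99). Chromosome 20 had 1.86%, 1.83% and 1.84% in cattle and 1.91%, 1.92% and 1.97% in goats, 0.07 higher (SE 0.016, adjusted p = 0.0034). It kept its direction but not its call when the summed length of peaks (0.019) or every summit (0.014) was counted. Chromosome 24 had 2.09%, 2.01% and 2.01% against 2.12%, 2.12% and 2.14%, 0.06 higher (SE 0.017, adjusted p = 0.0081, and 0.068 without cattle C). The remaining calls with goats higher were chromosomes 29, 19 and 3, at 0.06, 0.04 and 0.04.

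To see where along a chromosome the shares parted, the positions themselves had to be matched between the references, which was done from the spacing of the peaks alone. Each chromosome was cut into 20 bins of 5% of its length, and the peaks per bin of the 2 species were correlated with the goat chromosome read forwards and backwards. The direction was set from H3K27ac, a mark that does not enter the H3K4me3 values. Of the 27 goat chromosomes, 12 ran opposite to their cattle partner (2, 3, 4, 7, 10, 12, 15, 17, 23, 26, 27 and 28) and 15 the same way. H3K4me3 gave the same direction on 27 of 27, and with 10, 50 or 100 bins the directions were again equal on 27 of 27.

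In the direction set, the H3K4me3 profiles of the partners had a median Pearson's r of 0.937, from 0.733 to 0.994 over 20 bins. Read the other way, the median was -0.19 and the highest 0.51. Each cattle profile was more like that of its own goat partner than like that of any other goat chromosome, on 27 of 27. Animals of one species were closer still, with a median r of 0.990 among cattle and 0.992 among goats. For 25 of the 27 chromosomes the correlation between the species lay below the lowest one within either species. These correlations describe bins of the same libraries and have no p.

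The closest profiles were those of chromosome 5 (r = 0.994), chromosome 3 (r = 0.990) and chromosome 11 (r = 0.987). The least alike were chromosome 23 (r = 0.733), which carries the major histocompatibility complex, chromosome 13 (r = 0.753) and chromosome 15 (r = 0.772). Among cattle alone the lowest r was 0.983 on chromosome 23, 0.976 on 13 and 0.975 on 15, and among goats alone 0.990, 0.984 and 0.989. Animals of a species thus did not differ there as the species did. The cattle reference was the longer one for all 3, as it was for 22 of the 27. The lengths were 52.5 Mb in cattle and 48.9 Mb in goats for chromosome 23, 83.5 and 82.9 Mb for 13, and 85.0 and 81.9 Mb for 15.

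**Figure D2:**
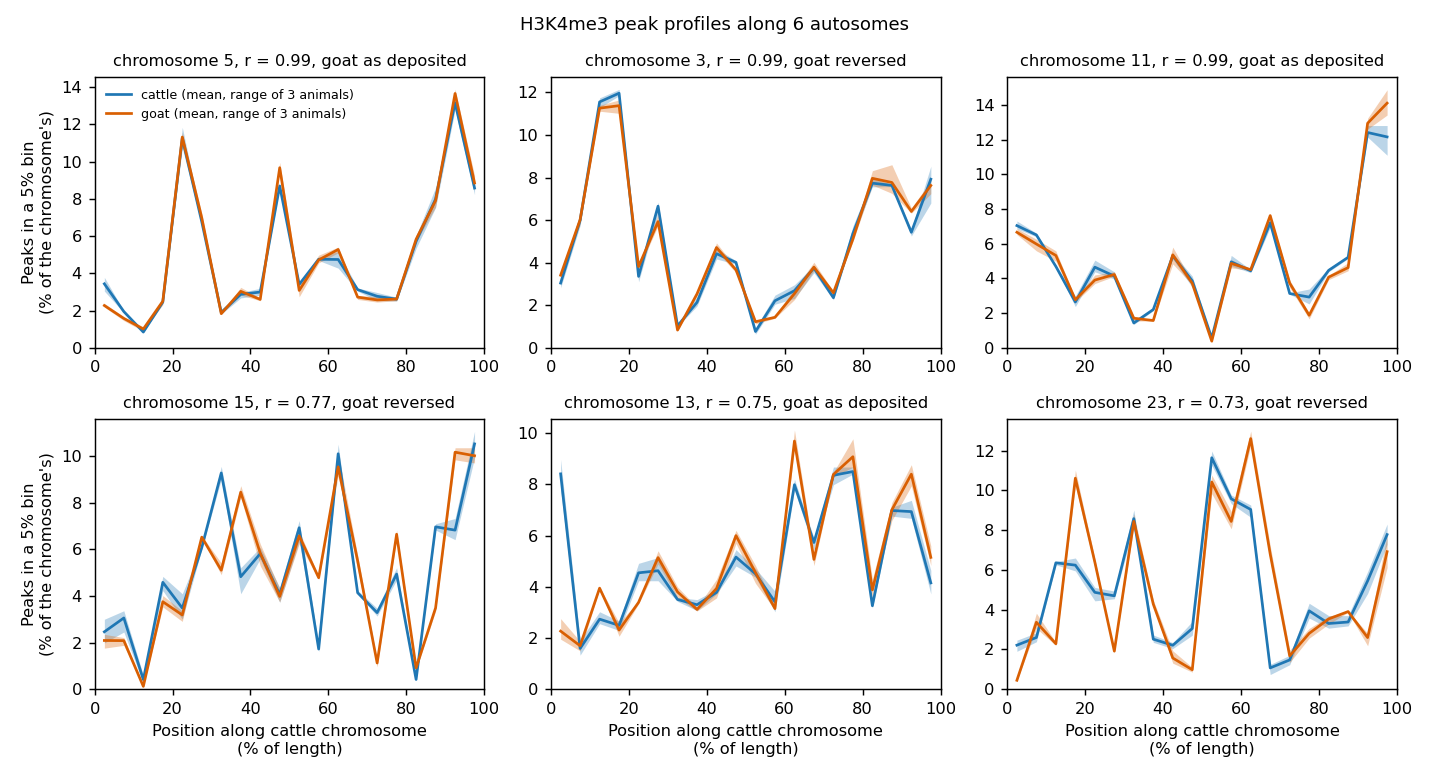
Share of a chromosome's H3K4me3 peaks in each 5% bin (%, vertical axis) along the chromosome in the direction of the cattle reference (% of length, horizontal axis). Lines are means of 3 animals and bands their range, blue for cattle and orange for goats. The upper row has the 3 closest profiles (r = 0.994, 0.990 and 0.987). The lower row has the 3 least alike, where the curves run apart in places on 15 and 23 and the first bin stands apart on 13.

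Bin by bin, 233 of the 512 bins with enough peaks differed between the species at an adjusted p under 0.05 in limma's test (45.5%). In goats 114 were higher (22.3%) and 119 lower (23.2%). Of the 512 bins, 85.9% lay within 1.5-fold of each other and 30 differed by more than 2-fold. Chromosome 23 had 15 of its 20 bins called and chromosome 27 had 12 of 16, against 2 of 19 on chromosome 22. The bins with the largest differences lay on 5 chromosomes. The 14th bin of chromosome 29 had 0, 0 and 1 peaks in cattle and 11, 10 and 11 in goats, with a fitted log2 difference of 3.85 that depends on the pseudocount. The 14th bin of chromosome 23 had 11, 6 and 11 peaks in cattle and 55, 66 and 60 in goats, a difference of 2.63 (SE 0.18, adjusted p = 2.3e-05). The 9th bin of chromosome 18 had 4, 6 and 4 against 24, 28 and 27.

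Some of these bins lay near a bin with more peaks in the other species, and some did not. The sums of bins given here are peak counts, whereas the test used shares of the chromosome's peaks. On average chromosome 29 held 643 peaks in cattle and 693 in goats, and chromosome 27 held 367 and 382. Sums that overlap may therefore stay apart as shares, which was not tested. Around the 14th bin of chromosome 23, the 13th was also higher in goats, and with both neighbours the 3 bins held 102, 93 and 104 peaks in cattle against 172, 199 and 190 in goats. Around the 14th bin of chromosome 29 the sums of 3 bins overlapped, with 36, 38 and 39 in cattle and 38, 42 and 43 in goats. They overlapped as well around the 9th bin of chromosome 18, with 71, 66 and 73 against 65, 79 and 73, around the 8th bin of 27, with 92, 81 and 88 against 74, 97 and 95, and around the 8th bin of 29, with 38, 32 and 34 against 30, 33 and 29. Around the last bin of 27 the sums of 2 bins met, with 35, 30 and 35 against 35, 40 and 44. The sums stayed apart around the 6th bin of 27, with 57, 49 and 47 against 70, 86 and 84, around the 10th bin of 23, with 147, 138 and 151 against 109, 111 and 125, around the first bin of 23, with 41, 43 and 40 against 29, 39 and 34, and around the first bin of 13, with 103, 96 and 89 against 32, 36 and 47. On chromosome 18 the 8th bin, just before, had 65, 58 and 67 peaks in cattle and 40, 50 and 45 in goats. On chromosome 27 the 6th bin rose by 2.03 and the 8th bin fell by 2.26, with 4, 4 and 4 against 17, 19 and 20 peaks in the first and 18, 17 and 20 against 3, 3 and 5 in the second. The last bin of chromosome 27 rose by 2.06, and the 10th and first bins of chromosome 23 fell by 1.58 and 2.16. On chromosome 29 the 8th bin had 14, 13 and 14 peaks in cattle and 2, 2 and 2 in goats, and the 7th bin 16, 11 and 11 against 22, 24 and 21. The first bin of chromosome 13 had 84, 82 and 76 peaks in cattle against 17, 21 and 28 in goats, a log2 difference of -1.88 (SE 0.13, adjusted p = 2.3e-05). Its neighbour had 19, 14 and 13 against 15, 15 and 19, which overlap.

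A finer match removed the rigid scaling to chromosome length. Cattle windows of 6 Mb, counted in bins of 25 kb and placed every 2 Mb, were laid along all 27 goat chromosomes in both directions, and the position with the highest correlation was kept. With H3K4me3, 747 of the 1049 windows (71.2%) found their best match on the goat chromosome of the same number, although a goat chromosome makes up only 1.88% to 6.91% of the length searched. Of these 747, 97.7% lay in the direction set before. By chromosome the percentage ran from 50% on 26 to 89.7% on 19. It depended on the window size, with 58.2% of all windows at 4 Mb and 78.8% at 8 Mb. The lowest chromosome then had 26.1% and 58.1%. With windows of 6 Mb, H3K27ac gave 64.0% of 1052 windows. Where both marks placed a window on the line of its chromosome, 560 windows in all, the 2 positions lay within 100 kb of each other in 560 of 560.

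**Figure D3:**
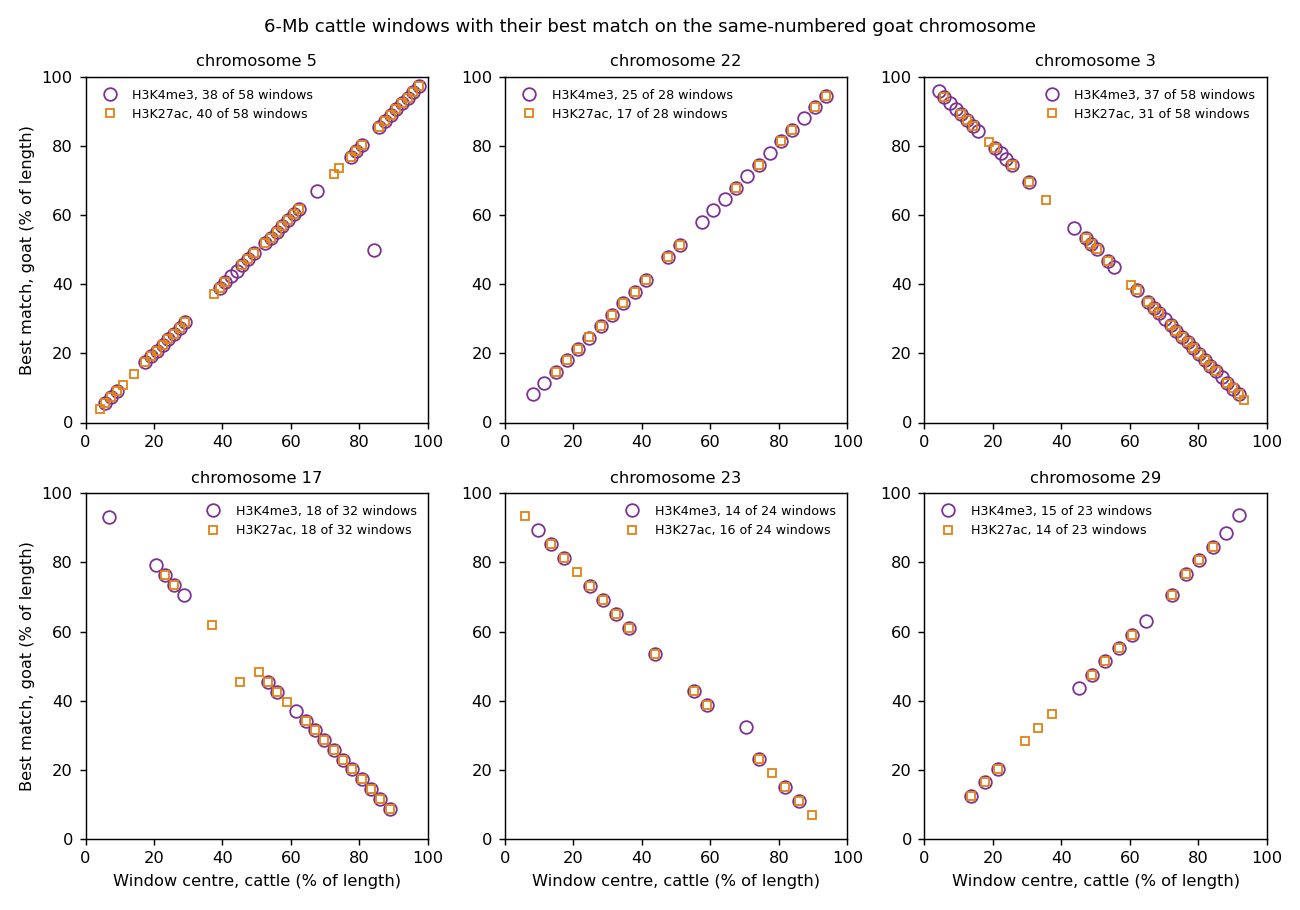
Best match of cattle windows of 6 Mb on the goat chromosome of the same number, as the window centre in % of chromosome length for cattle (horizontal axis) and goats (vertical axis), for 6 chromosomes. Circles were placed by H3K4me3 and squares by H3K27ac, and windows whose best match lay on another chromosome are not drawn. Chromosomes 5, 22 and 29 run the same way in both references and 3, 17 and 23 run in opposite ways, and the 2 marks fall on the same line.

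The offset between the references changed along many chromosomes. By H3K27ac it ranged over more than 1 Mb on 8 of the 27, which were 10 (2 Mb), 7 (1.93 Mb), 23 (1.73 Mb), 1 (1.53 Mb), 5 and 29 (1.2 Mb each), 3 (1.08 Mb) and 25 (1.05 Mb). Chromosomes 5 and 3 are thus among them although their profiles were the closest. On chromosome 23, read backwards in the goat, the sum of the cattle position and the matching goat position was 48.7 Mb for the window that starts at 4 Mb, 49.2 Mb at 20 Mb and 50.4 Mb at 36 Mb, so that over this stretch the cattle reference is longer by 1.65 Mb. On chromosome 29 the goat position minus the cattle position was -0.78 Mb for the window that starts at 34 Mb and 0.35 Mb for the next one. H3K4me3 put these 2 windows at -0.75 and 0.35 Mb. On chromosome 22 the H3K27ac windows on the line differed by at most 0.25 Mb, and on 16 by at most 0.15 Mb. Bins scaled to chromosome length therefore do not hold quite the same stretch in both references on these 8 chromosomes. Projecting ends shift the bins on others too. On 27 the cattle reference projects by 1.15 Mb at its start, and on 18 the goat position lies 1.4 Mb ahead near the start. The part of this in the differences between bins was not tested.

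H3K4me3 peaks were then counted in segments matched by H3K27ac. The central 2 Mb of the 655 windows placed by H3K27ac cover 1310 Mb, or 57.0% of the cattle length and 63.9% of the cattle peaks on the 27 autosomes. Their log2 peak counts in cattle and goats had r = 0.961, over segments of the same libraries. Of the 588 segments with enough peaks, 83 differed at an adjusted p under 0.05 in limma's test (14.1%), with goats higher in 53 (9.01%) and lower in 30 (5.1%). The number fell to 35 without goat B, 41 without goat C and 47 without cattle C. Within 1.5-fold lay 96.1% of the segments, and 2 differed by more than 2-fold. Chromosome 17 had 0 of 14 segments called and chromosome 18 had 0 of 16, while chromosomes 20 and 8 had 7 each, of 21 and 27. The median log2 difference over the 14 segments of chromosome 17 was 0.14, against 0.05 over all 588. The choice of segments favours stretches whose H3K27ac pattern is alike, so a stretch that differs in both marks may be missing, and their share of calls cannot be set against that of the 5% bins, which were scaled in another way.

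The segment that rose most lay on chromosome 5, from 58000001 to 60000000 in ARS-UCD1.2 and from 57325001 to 59325000 in ARS1. It held 5, 3 and 4 peaks in cattle and 11, 13 and 15 in goats, a log2 difference of 1.55 (SE 0.13, adjusted p = 4.9e-04, limma). The animals did not overlap. The one that fell most lay on chromosome 1, from 22000001 to 24000000 in cattle and from 20600001 to 22600000 in goats. It had 12, 9 and 14 peaks in cattle against 5, 6 and 6 in goats, a difference of -1.01 (SE 0.12, adjusted p = 0.0028). Next were a rise on chromosome 6 from 46000001 to 48000000 in cattle (3, 4 and 3 against 7, 7 and 7 peaks) and a fall on chromosome 12 from 72000001 to 74000000 (19, 16 and 12 against 8, 8 and 10). The genes of these segments are not given, because no annotation of these references was used here. They were chosen by size of change after the values were seen.

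The matched windows also give an estimate of where one reference reaches beyond the end of the other. Every end was assigned to one species or the other, however short the stretch. Cattle sequence projected past the goat end at 42 of the 54 chromosome ends, 21.9 Mb in sum, and goat sequence past the cattle end at 12, 3.92 Mb in sum. Of the 42 cattle stretches, 6 were longer than 1 Mb. A length here ends at the last peak, so goat sequence without peaks past it would count as missing. The projecting cattle ends held 763, 699 and 734 peaks in cattle A, B and C, between 3.06% and 3.13% of a library. The goat ends held 77, 81 and 86, between 0.32% and 0.35%. The position of an end rests on the offset of the nearest windows, which lay between 1.19 and 26 Mb away for the ends named here.

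The end of chromosome 17 held the most. From 71125005 to 73142554 of ARS-UCD1.2, a stretch of 2.02 Mb or 2.76% of the chromosome, lay 126, 114 and 125 peaks in cattle A, B and C, about 60.3 per Mb and 15.4% of the peaks of the chromosome. Their median width was 600 to 698 bp and their median fold enrichment (a ratio to background given by the peak caller) 6.43 to 6.70, where the whole cattle libraries had 6.51 to 7.30. The end of chromosome 12 was of the same kind, with 40, 33 and 39 peaks in 0.89 Mb and median widths of 614 to 682 bp.

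The starts of several cattle chromosomes held narrow peaks. Starts and ends did not divide by width, as the mean of the 3 median widths was 578.5 bp at the start of 17 and 446.5 bp at the end of 15. The first 0.65 Mb of chromosome 13 carried 69, 67 and 64 peaks, 102.6 per Mb on average, with median widths of 307 to 329 bp. For chromosome 16 it was 57, 58 and 60 peaks in 1.48 Mb with median widths of 345 to 387 bp, and for chromosome 1 it was 38 to 46 peaks in 1.63 Mb with 319 to 366 bp. The nearest window lay 26 Mb from the start of 13, 18 Mb from that of 16 and 2 Mb from that of 1. The stretches on 13 and 16 are thus the least surely placed of these. The median over the 27 autosomes was 752 ± 36 bp (SD, n = 3) in cattle. The goat peaks on sequences without a chromosome number were also narrow, with a median of 322 ± 3 bp (SD, n = 3). Whether the narrow cattle starts have their counterpart among these was not tested.

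Leaving out the projecting ends in both species changed the list of chromosomes. Calls fell from 12 to 6, of which 4 had been called before (4, 12, 22 and 29), while 8 and 16 were added. Chromosome 17 went from -0.26 to -0.023 (SE 0.018, adjusted p = 0.43, limma). Chromosomes 18, 28 and 13 lost their calls too. Chromosomes 20 and 24 went to 0.039 (adjusted p = 0.12) and 0.030 (adjusted p = 0.25), and 3 and 19 to 0.012 and 0.016, also without a call. Chromosome 22 stayed the highest, at 0.12 (adjusted p = 9.6e-08), and chromosome 12 remained lower in goats at -0.087 (adjusted p = 4.8e-05). Chromosome 4 moved further, to -0.10 (adjusted p = 1.0e-06). This fit pooled the spread fully over chromosomes and the first one only in part, so its adjusted p-values are not on the same footing. The setting was chosen after the shares had been seen.

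**Figure D4:**
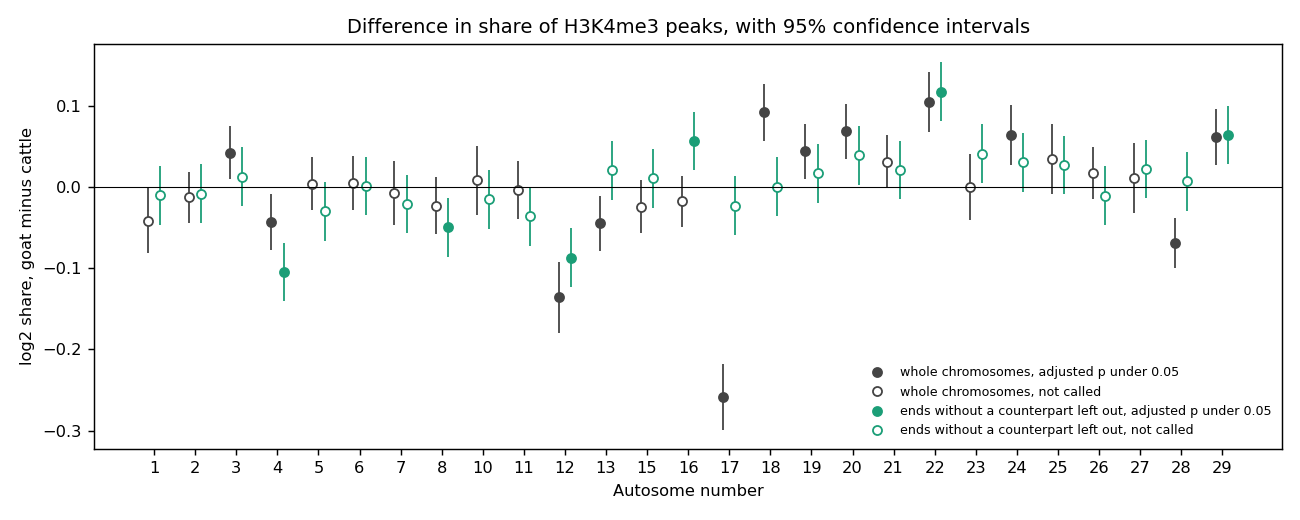
Difference in log2 share, goat minus cattle (vertical axis), by autosome number (horizontal axis), for whole chromosomes (grey) and with the ends that project past the partner left out (green). Lines are 95% confidence intervals from limma, and filled points have an adjusted p under 0.05. Chromosome 17 moves from -0.26 to -0.023 and chromosome 18 from 0.09 to near 0, while 22 stays at 0.10 and 0.12 and 12 stays below 0.

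A counterpart of the end of chromosome 17 was sought among the goat sequences placed on no chromosome. Of the 8 such sequences between 0.5 and 1 Mb long, 3 had H3K4me3 peaks in at least 20 bins of 10 kb, and their peak spacing was laid along all cattle chromosomes with 5 bin sizes from 5 to 20 kb and with each mark. The first, of 0.77 Mb with 52, 56 and 57 peaks in goats A, B and C, matched best at 72360001 on chromosome 17 in 5 of 10 searches, 4 of them by H3K4me3 and 1 by H3K27ac. At 15 kb its r was 0.70 there and 0.54 on the next best chromosome. The second, of 0.54 Mb with 33, 38 and 39 peaks, matched best at 71720001 on chromosome 17 in 2 of 10 searches, once by each mark. By H3K27ac at 20 kb its r was 0.82 there and 0.68 on the next best. Both lie inside the projecting end, next to each other and in the same direction. Support for the second is weak, because at 10 kb its H3K4me3 r was 0.61 against 0.58 on the next best, and by H3K27ac at 15 kb it lay on chromosome 26 with 0.68 against 0.60. The third sequence matched inside a projecting end in 1 of 10 searches, that of chromosome 12.

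Counted to chromosome 17, the first sequence alone brought the goats from 2.76%, 2.84% and 2.73% to 2.99%, 3.05% and 2.94%, a log2 difference from cattle of -0.15 in place of -0.26. With the less supported second sequence as well, they came to 3.13%, 3.20% and 3.08%, a difference of -0.082. The goats lay below the 3 cattle in both cases. This is a description, since the sequences were picked by their likeness to this end, and no test was made on it. Added peaks can only raise the goat share, and no other chromosome was given peaks of unplaced sequences.

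Peaks were somewhat wider in goats on nearly every chromosome. Over the 27 autosomes the median widths were 710.5 to 778 bp in cattle and 787 to 806.5 bp in goats, a ratio of 1.06 (p = 0.1, exact permutation test, the smallest value that 3 against 3 allow). By chromosome the fitted log2 difference was positive on 26 of 27, with a median of 0.09. In limma's test 7 chromosomes passed an adjusted p of 0.05, all with goats wider (25.9%). These were 26, 16, 13, 12, 17, 28 and 1. On 12 chromosomes the animals did not overlap, again with goats wider (44.4%). Cattle B was the narrowest of the 6 libraries on 26 of the 27 chromosomes, so the chromosomes of a library are not separate measurements and limma's p-values for width may be too small. Without cattle B the log2 difference over the 27 autosomes went from 0.086 to 0.046. Without goat C, goat A or cattle C, 1, 3 and 4 chromosomes were called, and 0 among peaks found in another animal (1 at an unadjusted p under 0.05) or among the 15000 strongest peaks (2 unadjusted).

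Chromosome 26 showed the largest difference. Its median widths were 748, 665 and 754 bp in cattle A, B and C and 840, 829 and 866 bp in goats A, B and C. No animal of one species reached the other, and the log2 difference was 0.23 (SE 0.051, adjusted p = 4.5e-04, limma). Chromosome 16 had 722, 666 and 724 bp against 780, 813 and 799 bp, 0.18 wider in goats (SE 0.051, adjusted p = 0.0055, and 0.069 without goat C).

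At the other end, chromosome 22 had 817, 736 and 800 bp in cattle and 783, 727 and 780 bp in goats, and chromosome 20 had 766, 683 and 745 bp against 734, 723 and 743 bp. Neither passed the test, at -0.038 and 0.0052, and the animals overlapped. Relative to the typical chromosome of each library, however, 22 and 20 were narrower in goats by 0.14 (adjusted p = 2.2e-04, limma) and 0.097 (adjusted p = 0.014), and 26 was wider by 0.13 (adjusted p = 6.5e-04). Without the projecting ends, 2 of the 7 chromosomes kept their call, 26 at 0.21 (adjusted p = 0.0014) and 12 at 0.18 (adjusted p = 0.010). Chromosome 16 then fell to 0.093 and 13 to 0.11, neither called. The narrow peaks at the cattle starts of 13 and 16 are among those left out there, and their part in the change was not tested.

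**Figure D5:**
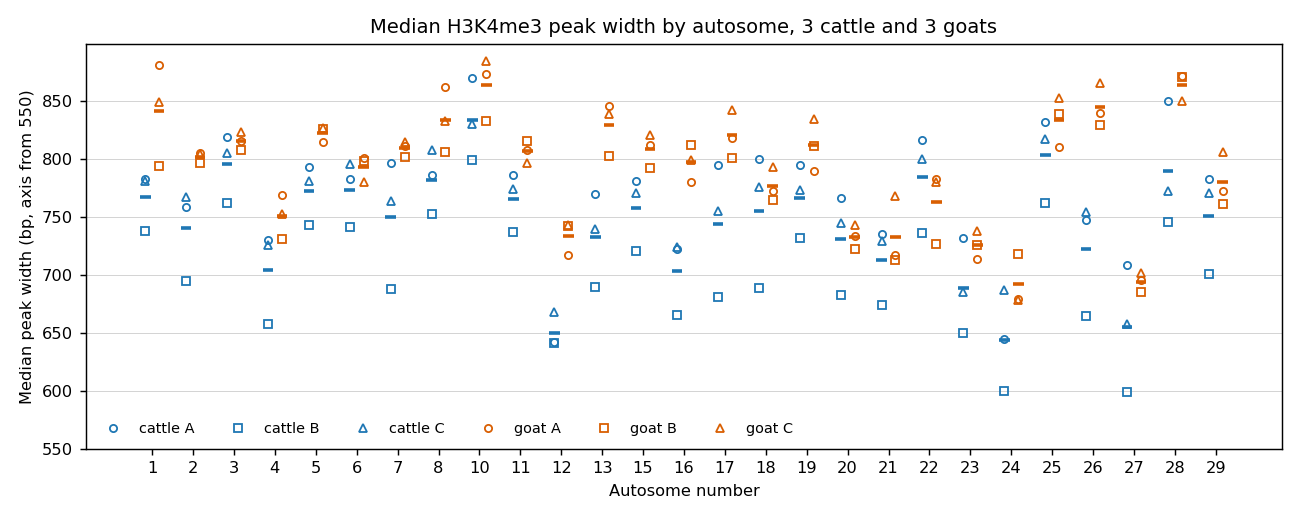
Median H3K4me3 peak width (bp, vertical axis starting at 550) by autosome number (horizontal axis). Symbols are single animals, blue for cattle and orange for goats, and bars are means of 3. Cattle B (blue squares) is the narrowest library on 26 of 27 chromosomes, and on chromosome 26 the goats (829 to 866 bp) lie above all cattle (665 to 754 bp).

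In 3 other properties of the peaks the animals of the species overlapped. Peaks with more than 1 summit made up 34.3% ± 3.8 in cattle and 37.9% ± 0.8 in goats (SD, n = 3 each; p = 0.2, exact permutation test). Median fold enrichment was 6.79 ± 0.45 in cattle and 7.30 ± 0.22 in goats (p = 0.3, exact permutation test). Peaks with 50% or more of their bases inside peaks of another animal of the same species made up 90.6% ± 5.7 in cattle and 91.7% ± 4.8 in goats (p = 0.9, exact permutation test). By chromosome its mean ran from 88.1% on 20 to 92.6% on 19 in cattle and from 89.4% on 12 to 93.6% on 25 in goats, ranges narrower than the spread between animals, with a median SD of 5.94 and 5.07 percentage points.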

How the data were processed

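The authors trimmed reads with Trim Galore 0.4.0, mapped them with BWA-MEM 0.7.17, removed duplicates with Picard 2.25.0, subsampled to equal read numbers and called narrow peaks with MACS2 2.1.1 at q 0.01. Whether inputs served as background is not stated. The deposited lists give positions, a fold enrichment (ratio), −log10 p and q values and a display score, and replicates were not pooled. Only positions, fold and −log10 q were used. Rows with the same interval were joined.

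Peaks on the 27 autosomes were counted per animal. Single values were compared by the two-sided exact permutation test (3 against 3). Shares, widths, bins and segments were fitted on log2 values with limma 3.58.1 (R 4.3.3), with Benjamini-Hochberg adjustment at 0.05, a pseudocount of 0.5 peaks and a minimum mean of 5 peaks for bins and segments. For width, and for share without projecting ends, the spread was fully pooled over chromosomes. Bins and segments were scaled to the library's peaks on their chromosome or on the 27 autosomes. In simulated data of 27, 512 and 588 features, changes of 0.15 in share and 0.8 in bins and segments (log2) were all recovered (100%), with false shares of 3.86%, 4.24% and 4.35%. Most observed differences are smaller, and recovery at those sizes was not simulated. The simulated noise was independent and had the same SD for every feature. Real shares add up to a whole and differ in spread, so the simulation does not give the false share among the real calls. The overlap code equalled bedtools 2.31.1 on the 2 lists tried. Depth is unknown from peak lists.

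Named were the 4 largest rises and falls in share, 2 chromosomes at each end in width, 3 in profile and 5 bins each way. The chromosomes, measures and lists were chosen with earlier results of these data known. Same-letter deviations between species had r of -0.17, 0.22 and -0.13, so letters were not used as pairs. Window matching, segments, projecting ends and unplaced sequences were added after the data had been seen. Python 3.11.15 was used.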

Additional observations from a re-analysis of the deposited data

Results flagged for a closer look

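On 11 of the 27 chromosomes the goat-minus-cattle difference in log2 share was not the same in H3K4me3 as in H3K27ac (interaction of mark and species in limma, adjusted p under 0.05). H3K4me3 was the lower of the 2 marks on chromosomes 1, 10, 13, 15 and 16, by -0.12, -0.093, -0.12, -0.077 and -0.072. It was the higher on 17, 18, 22, 23, 24 and 25, by 0.078, 0.10, 0.073, 0.11, 0.091 and 0.10. Chromosome 17 is among them because its H3K27ac share fell by more, -0.34 against -0.26. The H3K27ac libraries come from the same animals, 2 cattle and 3 goats, and the fit took them as separate samples. In sign, the 2 marks were equal on 14 of 27 chromosomes.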

How the results depend on the processing

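Peak number, median width and the direction of every chromosome named for its share kept their sign when each animal was left out. Peak number then ranged from 0.00047 to 0.11 (log2, goat minus cattle), width from 0.046 to 0.11 and the median profile correlation from 0.933 to 0.940. Chromosomes called for share numbered 12 (7 higher, 5 lower), 7 to 11 with 1 animal left out (7 without cattle C), 20 with the 15000 strongest peaks (11 higher, 9 lower) and 6 without projecting ends. As shares of all peaks of a library 27 were called, all 27 lower in goats, whose libraries have 70.7% of their peaks on these autosomes against 90.3% in cattle, and 18, 20, 22 and 24 reversed to -0.26, -0.28, -0.25 and -0.29. That scaling moves all 27 differences by the same -0.35, so these reversals are not particular to single chromosomes. Without projecting ends 13 and 28 reversed to 0.020 and 0.0068. Called widths numbered 7, but 1 for the mean width, 11 with peaks within 500 bp merged, 4 at −log10 q of at least 5, 2 without projecting ends, 3 relative to the library (1 wider, 2 narrower in goats) and 1 to 10 with 1 animal left out (4 without cattle C, 3 without goat A, 1 without goat C). In limma's test 0 were called for peaks found in another animal (1 at an unadjusted p under 0.05) and 0 for the 15000 strongest (2 unadjusted). Chromosome 22 reversed to 0.0076 for the mean width and 0.053 for the strongest peaks. Chromosome 20 reversed to -0.0089 at the stricter q, -0.031 for peaks found in another animal, -0.097 relative to the library and -0.043 to 0.039 with 1 animal left out (-0.043 without cattle B, -0.0044 without goat C). Called bins numbered 233, 188 to 214 with 1 animal left out, 106 of 269 with 10 bins and 547 of 1070 with 50. The median profile correlation was 0.965 with 10 bins, 0.868 with 50 and 0.786 with 100. It was 0.901 with goat chromosomes in the direction deposited, where the first and 10th bins of chromosome 23 reversed to 1.62 and 1.76. Called segments numbered 83, 35 to 71 with 1 animal left out (47 without cattle C, 35 without goat B, 41 without goat C). The letters share only a number across species, and a replicate block gave 8 chromosomes for share, 9 for width, 217 bins and 72 segments. Under the block chromosome 13 lost its share call (adjusted p = 0.058). The cause of the other changes was not tested.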
